A study of Mus musculus with 262 samples.

Results

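Type A intercalated cells are the acid-secreting cells of the renal collecting duct. The 87 cells described here are all single cells that the authors named type A intercalated cells in a table of 235 single mouse kidney cells, within a series of 262 samples. The comparison cells of the same table were 74 principal, 23 type B intercalated, 32 non-epithelial and 19 proximal tubule cells, by the authors' names. All came from male mice aged 2 months, and the single cells were of the C57BL/6 strain. The labels of the type A samples give the sort as DBA (a lectin that binds collecting duct cells) plus c-Kit for 60 cells, c-Kit alone for 25 and DBA alone for 2. Those of type B cells give a sort labelled PNA for 17, c-Kit for 4, and DBA and DBA plus c-Kit for 1 each. Principal cells were sorted by DBA for 37 and by DBA plus c-Kit for 37. Cell type and sort therefore cannot be fully told apart in comparisons between these types. The type A columns of the table are numbered 1 to 87 and could not be tied to the sorts, and no animal is named for any cell. Each cell type is therefore 1 sample here, and no test between single-cell types was made.

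A type A cell pumps protons into the urine through a vacuolar H+-ATPase in its apical membrane and returns bicarbonate to the blood through the anion exchanger AE1, encoded by Slc4a1. Carbonic anhydrase II, encoded by Car2, supplies both ions. Type B cells secrete bicarbonate through pendrin (Slc26a4) and principal cells reabsorb sodium and water, so the cell types of the duct are told apart by a few transport genes. Foxi1 is the forkhead transcription factor required for intercalated cells to form.

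Sorted pools of cells and dissected tubules gave samples of their own. A c-Kit-sorted and a DBA-sorted fraction of C57BL/6 kidney were sequenced in bulk, with 2 samples each. GFP-positive and GFP-negative cells, also 2 samples each, came from mice of the strain labelled Atp6v1b1GFP, named for the proton pump gene of intercalated cells. Cortical collecting ducts (CCD) were dissected by hand from C57BL/6 males and gave 11 tubules, from 7 mice as named in the column headers. The labels do not say that the sorted bulk samples came from separate animals, so p-values measure only the spread between these samples. In any bulk sample, fewer cells of a type and less RNA per cell cannot be told apart. Kit encodes the antigen of the c-Kit sort and Atp6v1b1 is the gene in the name of the GFP strain, so their levels across those sorts check the sorts and are no finding.

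Levels are in TPM, a measure corrected for transcript length that adds up to the same total in every sample, and a gene was counted as detected at 1 TPM or more. TPM keeps no read depth, so the depth of each cell is unknown. Means and SDs are over all cells of a type, and a number of cells given beside a mean is the number in which the gene was detected. A type A cell had 1092 to 4161 detected genes (median 2704), against medians of 2759 in type B and 2924 in principal cells. Mitochondrial transcripts made up 3.33% to 68.0% of a type A cell's TPM (median 17.7%). Shares of cells are given with exact Clopper-Pearson 95% intervals, which cover counting error only. For a gene at 1 TPM or more in 0 of 87 cells, the limit that a count of 0 allows (3 cells of the 87) is 3.45%, a limit on cells reaching 1 TPM and not on cells expressing the gene.

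The name was set beside 5 defining genes. They were Slc4a1, Aqp6 (an intracellular aquaporin), Kit (the receptor for stem cell factor), Dmrt2 (a DM-domain transcription factor) and Adgrf5 (an adhesion G protein-coupled receptor). The authors' names may rest on the values of these same genes, so their detection describes the cells and is no independent check of the name. Kit is also the antigen of the c-Kit sort. All 5 were detected in 62 of the 87 cells, 4 in 14 cells and 3 in 5 cells. At least 4 of the 5 were detected in 76 type A and 10 principal cells, in 0 type B cells, and in 9 non-epithelial and 2 proximal tubule cells. The rest of the type A cells, 6 in number, held at most 1 of the 5 (columns 1, 2, 34, 53, 63 and 78).

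Several cells went against the name. Cell 78 had 15161 TPM of Umod, which encodes uromodulin of the thick ascending limb. It also had 636 TPM of Aqp2 (the vasopressin-regulated water channel of principal cells). Cell 63 had 5534 TPM of Umod. Cells 34 and 53 had 1204 and 1092 detected genes, and mitochondrial transcripts took 68.0% and 67.2% of their TPM. Cell 42 held all 5 type A markers together with 6459 TPM of Cpa3 and 8032 TPM of Cma1, both proteases of mast cells. Whether any of these columns holds more than 1 cell was not tested, and no doublet caller fits a TPM table. In all, 20 type A cells held at least 100 TPM of leukocyte, mast cell or plasma cell markers summed, and the 5 red cell markers were detected in none of the 87. Cell 56, with 3 type A markers and 1392 detected genes, had the highest sum of principal cell markers, 7771 TPM.

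The 5 markers varied widely among the cells. Slc4a1 (GRCm38 chr11:102348824-102366203, minus strand) was detected in 77 of 87 cells (88.5%, interval 79.9% to 94.3%), at 195 ± 252 TPM (SD, n = 87 cells; median 94.1, highest 961). Of principal cells 18.9% held it (interval 10.7% to 29.7%; mean 18.1 TPM), and of type B cells 4.35% (0.11% to 21.9%; mean 0.316 TPM). Kit (chr5:75574916-75656722, plus strand) was detected in the most cells, 82 of 87, at 290 ± 356 TPM (median 184, highest 1725), against means of 43.5 TPM in principal and 46.1 TPM in type B cells. Most type A cells thus lay above 1 TPM for each marker, while most other epithelial cells lay below it.

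Dmrt2 (chr19:25672411-25678991, plus strand) had the lowest mean of the 5 in type B cells. It averaged 248 ± 354 TPM (median 85.3, highest 1901) in type A cells, with 73 of 87 positive. Principal cells averaged 12.8 TPM and type B cells 0.119 TPM. In type B, 0 of 23 cells reached 1 TPM (3 cells of 23, the limit for a count of 0, is 13.0%, again for cells reaching 1 TPM). Adgrf5 (chr17:43360451-43459557, plus strand) averaged 156 ± 161 TPM (median 106, 80 of 87 cells), and Aqp6 (chr15:99601400-99605477, plus strand) 121 ± 159 TPM (median 55.4, 72 of 87 cells). Principal cells averaged 11.2 TPM of Adgrf5 and 12.6 TPM of Aqp6. For each of the 5 markers the SD over cells was at least as large as the mean.

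**Figure D1:**
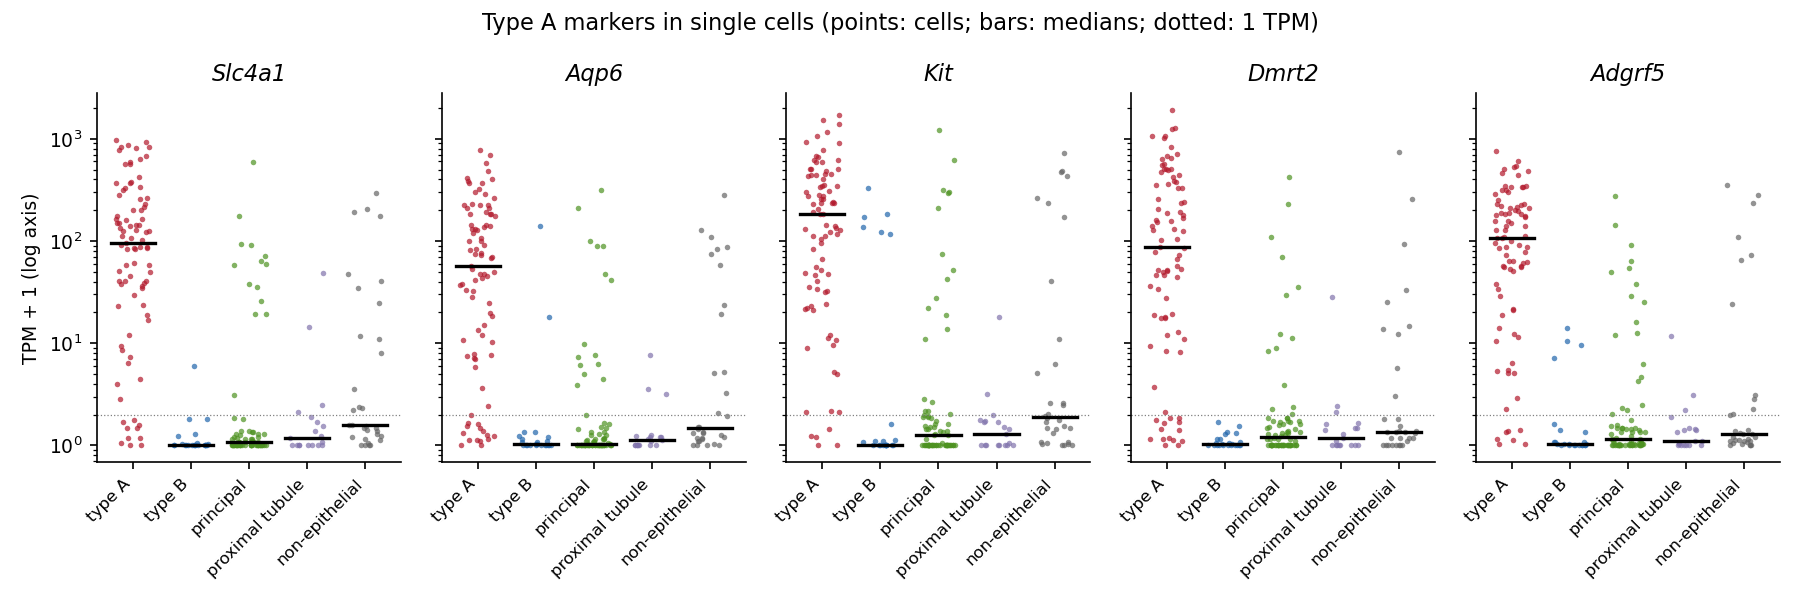
TPM + 1 (log axis) of the 5 type A markers in every single cell, by the authors' cell types; points are cells, bars are medians and the dotted line is 1 TPM. The type A medians run from 55.4 TPM (Aqp6) to 184 TPM (Kit), while the medians of type B and principal cells lie under the dotted line.

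Promoter sequences are shown for 2 genes, one expressed in both intercalated types (Atp6v1b1, a proton pump subunit) and one at background in type B cells (Dmrt2). The windows end just before the start of the gene and come from RefSeq promoters on GRCm38.p6, both on the plus strand, at chr6:83742767-83742989 for Atp6v1b1 and chr19:25672161-25672410 for Dmrt2. Letters in capitals mark the forkhead core GTAAACA or its reverse complement TGTTTAC, searched on both strands in the 250 bases upstream of each RefSeq start.
Atp6v1b1: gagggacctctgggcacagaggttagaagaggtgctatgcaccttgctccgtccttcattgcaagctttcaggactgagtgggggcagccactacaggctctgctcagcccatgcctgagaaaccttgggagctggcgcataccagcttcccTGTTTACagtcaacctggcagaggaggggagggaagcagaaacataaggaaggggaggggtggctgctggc
Dmrt2: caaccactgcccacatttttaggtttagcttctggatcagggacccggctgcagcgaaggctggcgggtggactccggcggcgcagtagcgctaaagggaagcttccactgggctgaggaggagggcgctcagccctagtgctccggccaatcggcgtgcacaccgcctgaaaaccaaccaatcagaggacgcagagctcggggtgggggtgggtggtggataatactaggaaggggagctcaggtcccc
In the Atp6v1b1 promoter the match began 98 bases upstream of the RefSeq start, on the reverse strand. The last 27 bases of that window lie in the annotated gene and are left out. The Dmrt2 window held no match. Of all 32851 RefSeq promoters, 1040 (3.17%) held the motif. Of the 13 type A enriched genes described next, 10 had a promoter entry and none held it, and of 6 genes marking both intercalated types 4 had an entry and Atp6v1b1 alone held it.

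Type A enriched genes were those with a mean of at least 50 TPM, detection in at least 50% of the 87 cells and a mean at least 4-fold that of type B and of principal cells, as log2 of the ratio of means with 1 TPM added to each (2 or more). Of 1268 genes that met the level and detection limits, 13 (1.03%) met the ratio. The 13 were the 5 markers with Dpysl2, Nupr1, Mme, Epb41l2, Zak, Ccl4, Alcam and Edn3. Their ratios are a description of these cells, since the authors' names may rest on the same values. Among the genes just under the limit were Esrrg and Ica1, at log2 ratios of 1.93 and 1.90.

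Among the surface proteins, Mme (neprilysin, a membrane peptidase) was the most abundant, at 639 ± 633 TPM (median 409, highest 2462) in 81 of 87 cells. Principal cells averaged 69.1 TPM and type B cells 15.6 TPM. Alcam, a cell adhesion molecule, averaged 141 ± 212 TPM in 76 cells, near the limit with a log2 ratio of 2.05. Both were thus detected in most of the 87 cells, but not in these alone. Mme was detected in 12 of 23 type B, 27 of 74 principal, 12 of 19 proximal tubule and 22 of 32 non-epithelial cells. Alcam was detected in 13, 20, 4 and 17 cells of the same types.

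The secreted factors came from fewer cells. Edn3 (endothelin 3, a vasoactive peptide) was detected in 45 of 87 cells, at 145 ± 321 TPM with a median of 1.77 and a highest value of 1536. Ccl4, a chemokine of myeloid cells, had a mean of 90.7 TPM and a median of 3.09, and 9 cells gave 92.4% of its summed level. Its mean in the non-epithelial cells was 6963 TPM. Without the 20 cells that held blood or mast cell markers, Ccl4 was no longer on the list.

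Intracellular proteins made up the rest. Dpysl2, a microtubule-binding protein known from axon growth, averaged 145 ± 199 TPM (median 81.9) in 58 of 87 cells, with 10.1 TPM in principal and 6.28 TPM in type B cells, but 358 TPM in non-epithelial cells. Nupr1, a stress-induced nuclear protein, averaged 580 ± 1455 TPM with a median of 1.76 and a highest value of 8155, so that its mean was carried by the upper part of its 53 positive cells. Epb41l2, a cytoskeletal linker, averaged 77.2 ± 132 TPM (median 9.08, 50 cells), and Zak, a stress-activated kinase, 57.2 ± 100 TPM (median 3.16, 45 cells). Edn3 and Nupr1 were detected together in 30 cells, Edn3 alone in 15, Nupr1 alone in 23 and neither in 19.

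Over the 87 cells the 13 genes were at most loosely related in level. Spearman's rho between pairs ran from -0.13 (Ccl4 and Adgrf5) to 0.44 (Mme and Aqp6), and rho with the number of detected genes ran from 0.07 (Ccl4) to 0.41 (Adgrf5). These are descriptions over cells that share libraries, unknown depth and a fixed TPM total.

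How the list was made moved its size. With medians in place of means 23 genes met the rule, 8 of them shared, and Ccl4, Edn3, Epb41l2, Nupr1 and Zak dropped out. Against all 4 other single-cell types, 6 genes remained (Dmrt2, Adgrf5, Slc4a1, Aqp6, Zak and Edn3). Without the 57 type A cells that held 4 or more of 8 principal cell markers, 26 genes met it in the 30 cells left, 11 of them shared. Of these 57 cells, 47 were among the last 50 type A columns and 10 among the first 37. The setting is therefore largely a choice of columns as well, and which of these moved the count was not tested. In the first 37 columns alone, 19 genes met the rule, 11 of them shared.

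Of the 15 genes with the highest mean in the 87 cells, 8 were mitochondrial. Among these mt-Cytb averaged 67580 TPM, the highest level of any gene, followed by the nuclear RNA Malat1 at 45109 TPM and mt-Co1 at 43784 TPM. Gm37376, at 35368 TPM, overlaps the Malat1 locus, so the split of reads between these genes is uncertain. Car2 was the most abundant nuclear gene known for a role in acid-base transport, at 9408 ± 4477 TPM (median 9853, lowest 13.0, highest 20163), and was detected in all 87 cells. Principal cells averaged 3911 TPM of it and type B cells 5093 TPM. Ldhb, a lactate dehydrogenase subunit, averaged 5465 TPM. Fxyd2, the small regulatory subunit of the sodium pump, averaged 5139 TPM, and both were detected in all 87 cells. Defb1, an antimicrobial beta-defensin, was also detected in all 87, at 2158 ± 1503 TPM, against means of 1698 TPM in principal and 117 TPM in type B cells.

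Of 25 proton pump subunits and accessory proteins, 21 had a mean of at least 10 TPM, and their summed mean was 18420 TPM, against 8643 TPM in principal and 24955 TPM in type B cells. Where a subunit has a form typical of intercalated cells and a widespread one, the former led in most cells. Atp6v1g3 averaged 2451 ± 1331 TPM and exceeded Atp6v1g1, at 1 TPM or more, in 81 of 87 cells. Atp6v0d2 averaged 810 TPM against 24.9 TPM for Atp6v0d1, and was detected at the higher level in 80 cells. Atp6v1c2 averaged 763 TPM against 37.1 TPM for Atp6v1c1, with the higher level in 78 cells, and Atp6v0a4 averaged 564 TPM against 12.9 TPM for Atp6v0a1, with the higher level in 80. The B subunit was the most mixed: Atp6v1b1 averaged 521 ± 952 TPM and led in 71 cells, while Atp6v1b2 averaged 113 TPM, was detected in 43 cells and led in 13. The ratio of means was 4.62 for the B pair and 43.7 for the Atp6v0a4 and Atp6v0a1 pair.

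**Figure D2:**
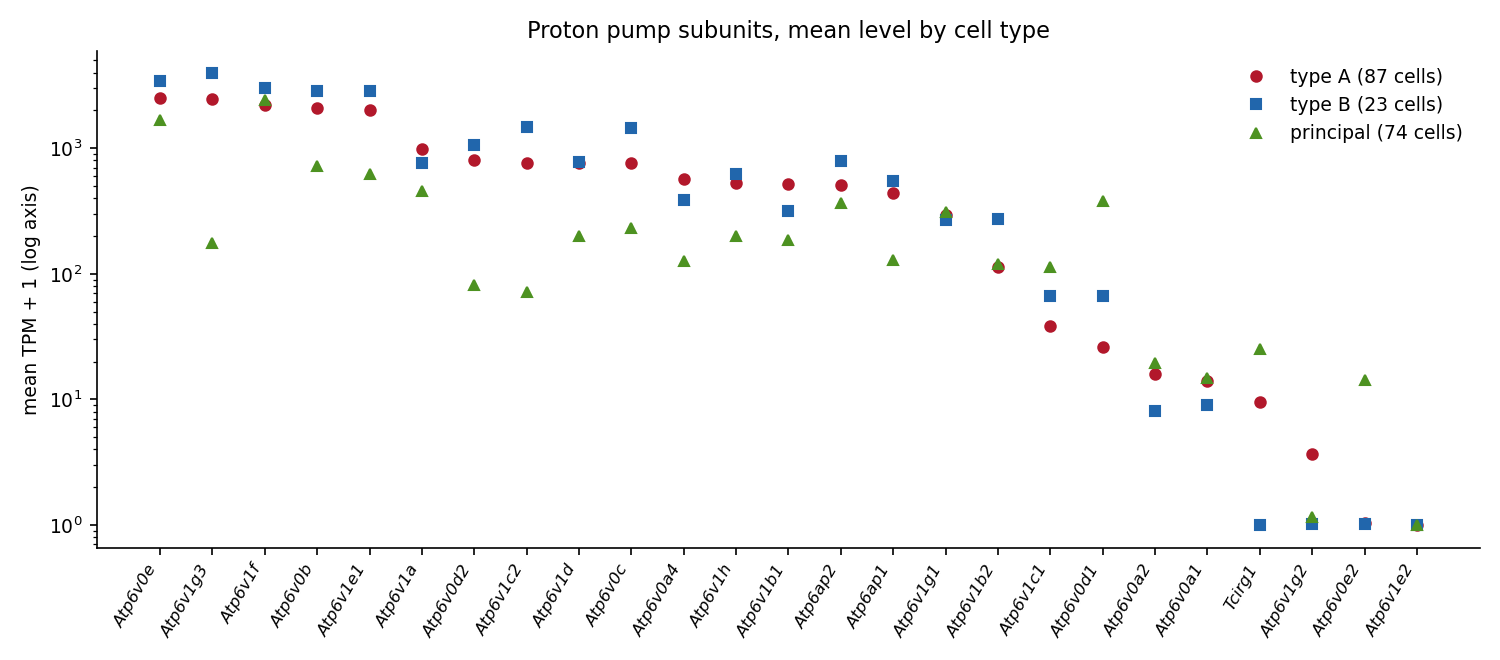
Mean TPM + 1 (log axis) of the 25 proton pump subunits and accessory proteins in type A, type B and principal cells, in order of the type A mean. The forms Atp6v1g3, Atp6v0d2, Atp6v1c2 and Atp6v0a4 are high in both intercalated types and lower in principal cells, while Atp6v0d1, Atp6v1c1 and Atp6v0a1 are low in type A cells.

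Other subunits were also abundant. Atp6v0e averaged 2492 TPM, Atp6v1f 2221 TPM, Atp6v0b 2090 TPM and Atp6v1e1 2020 TPM. Atp6v1e2 and Atp6v0e2, the partner forms of Atp6v1e1 and Atp6v0e, were detected in none of the 87 cells.

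Among acid-base and chloride transporters, 15 of 28 genes had a mean of at least 10 TPM. Slc26a4, the pendrin gene of type B cells, reached 1 TPM in 2 of the 87 cells (2.30%, interval 0.28% to 8.06%) and in 23 of 23 type B cells, where it averaged 1201 TPM. Slc4a9 (AE4, a basolateral transporter best known from type B cells) was less exclusive: it averaged 230 TPM in the 87 cells and 406 TPM in type B, and 64 type A cells held both Slc4a1 and Slc4a9. Bsnd, which encodes the chloride channel subunit barttin, averaged 168 TPM in 56 cells.

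The ammonia channels Rhbg and Rhcg were detected together in 71 of 87 cells, at means of 452 and 307 TPM. Car15 and Car12, both membrane-bound carbonic anhydrases, averaged 618 and 225 TPM. Of the H+,K+-ATPases, the gastric alpha subunit Atp4a averaged 29.6 TPM in 18 cells, and the colonic Atp12a was detected in none. In bulk Atp4a was at 232 and 217 TPM in the c-Kit samples and at 337 and 301 TPM in the DBA samples (log2 difference -0.50 ± 0.08; limma adjusted p = 0.00220), and it ran from 88.8 to 392 TPM in the dissected tubules. Slc26a7, an anion exchanger of acid-secreting cells, was detected in 4 cells, with a mean of 9.52 TPM.

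Receptor genes were unevenly spread. Oxgr1, the 2-oxoglutarate receptor, averaged 247 ± 320 TPM in 76 of 87 cells. P2ry14, the UDP-glucose receptor, averaged 100 ± 330 TPM in 28 cells, 27 of which also held Oxgr1, against 1 of 23 type B cells and 7 of 74 principal cells. The vasopressin V1a receptor Avpr1a averaged 89.1 TPM in 62 cells. Its V2 counterpart Avpr2, through which vasopressin acts on principal cells, was detected in 18 of the 87, with a mean of 6.29 TPM, against 667 TPM in principal cells. Jag1, a Notch ligand, was detected in 77 cells at a mean of 254 TPM, while the receptor Notch2 was detected in 17 cells at 2.88 TPM. The maxi-K channel gene Kcnma1 was detected in none of the 87 cells.

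Transcription factors ranged from nearly every cell to almost none. Tfcp2l1, a grainyhead-family factor of the collecting duct, was detected in 85 cells at 793 ± 436 TPM, above the means of principal (672 TPM) and type B cells (372 TPM). Foxi1 reached 1 TPM in 58 of the 87 (66.7%, interval 55.7% to 76.4%), at 219 ± 407 TPM, and in 22 of 23 type B cells (95.7%, 78.1% to 99.9%), at 588 TPM. All 58 Foxi1-positive cells held Tfcp2l1, and 55 of them held Dmrt2, while 18 cells held Dmrt2 without detected Foxi1. Hmx2, a homeobox factor found in 19 of 23 type B cells, was detected in 1 type A cell.

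The summed mean of 12 mitochondrial energy genes was 14519 TPM, between those of principal (11571 TPM) and type B cells (20645 TPM), and Atp5b, the beta subunit of ATP synthase, averaged 3218 ± 1692 TPM in all 87 cells. The 12 glycolysis genes summed to 10106 TPM, with Aldoa (aldolase) at 2309 TPM in 86 cells. Of heat shock genes 4 of 6 were detected in at least 50% of the cells. Hspa8, a constitutive chaperone, averaged 1140 TPM in all 87 cells, against 556 TPM in principal and 494 TPM in type B cells. The immediate early gene Fos was also in all 87 cells, at 871 ± 1140 TPM (median 467), against 1870 TPM in principal cells. The 8 immediate early genes summed to 2766 TPM in the cells of columns 1 to 37 and 1477 TPM in those of columns 38 to 87. The 11 potassium channel genes summed to 117 TPM, against 1891 TPM in principal cells. Atp1b1, the beta subunit of the sodium pump, was detected in all 87 cells at 413 TPM.

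Cell-to-cell variation was taken as the coefficient of variation (CV, the SD over the mean) across the 87 cells. It fell with level: the median CV was 2.76 over 1105 genes with a mean of 50 to 100 TPM and 0.725 over 99 genes that averaged 1000 TPM or more. Only 70 genes were detected in every cell and 375 in at least 90% of them, of 47069 in the table. Each gene's CV was therefore set against the running median of 51 genes of like level. The least variable gene by that ratio was Gm28438 (CV 0.733). Of the named protein-coding genes near it, Hnrnpl, a splicing factor, had a CV of 0.645 and was detected in 86 cells (lowest value 0.66 TPM), and Alkbh5, an RNA demethylase, a CV of 0.696 in 82.

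Single cells carried the most variable genes. The 10 largest ratios ran from 4.25 to 5.47 and belonged to Gzmb, Mrpl17, Ptgs1, Psma2, Usp16, Ap1m2, AC154540.1, Nfe2l2, Fam118b and Umod. Cell 56, the one with the highest principal marker sum, held the highest value of 6 of them, cell 34 of 2, and cells 42 and 78 of 1 each. Gzmb, a granule protease of cytotoxic and mast cells, was detected in 4 cells and reached 16422 TPM in cell 42, the cell with mast cell proteases. Umod was detected in 17 cells and was highest in cell 78. With the highest 5% of cells left out for each gene, 6 of the 10 fell under the mean of 50 TPM and were not ranked, and none of the others was among the 10 most variable. The trimming removes the very cells that put these genes on the list. Of the 10 least variable, 7 were so again.

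Other genes led once the highest cells were left out. Klk1, the kallikrein gene, led after that trimming, with a trimmed CV of 1.81, the highest relative to genes of like level. Its mean was 2318 TPM over all cells and 1170 TPM after trimming, with a median of 207, and it was detected in 78 of 87 cells and reached 40771 TPM in cell 58. Guca2a, which encodes the peptide guanylin, averaged 1932 TPM with a median of 795 in 77 cells, and 70 cells held both. Type B cells averaged 14344 TPM of Klk1 and 657 TPM of Guca2a, and principal cells 147 and 231 TPM. Nupr1, Atf3 (a stress-induced transcription factor), Herpud1 (of the endoplasmic reticulum stress response) and Fxyd2 were also among the 10 most variable after trimming. Nupr1 still rested on few cells: 9 cells gave 77.2% of its summed level, and its mean fell from 580 to 275 TPM with trimming. Atf3 was detected in 59 cells at 441 TPM with a median of 2.00, and Fxyd2 was in all 87 cells with a median of 3451 TPM and a highest value of 23006.

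**Figure D3:**
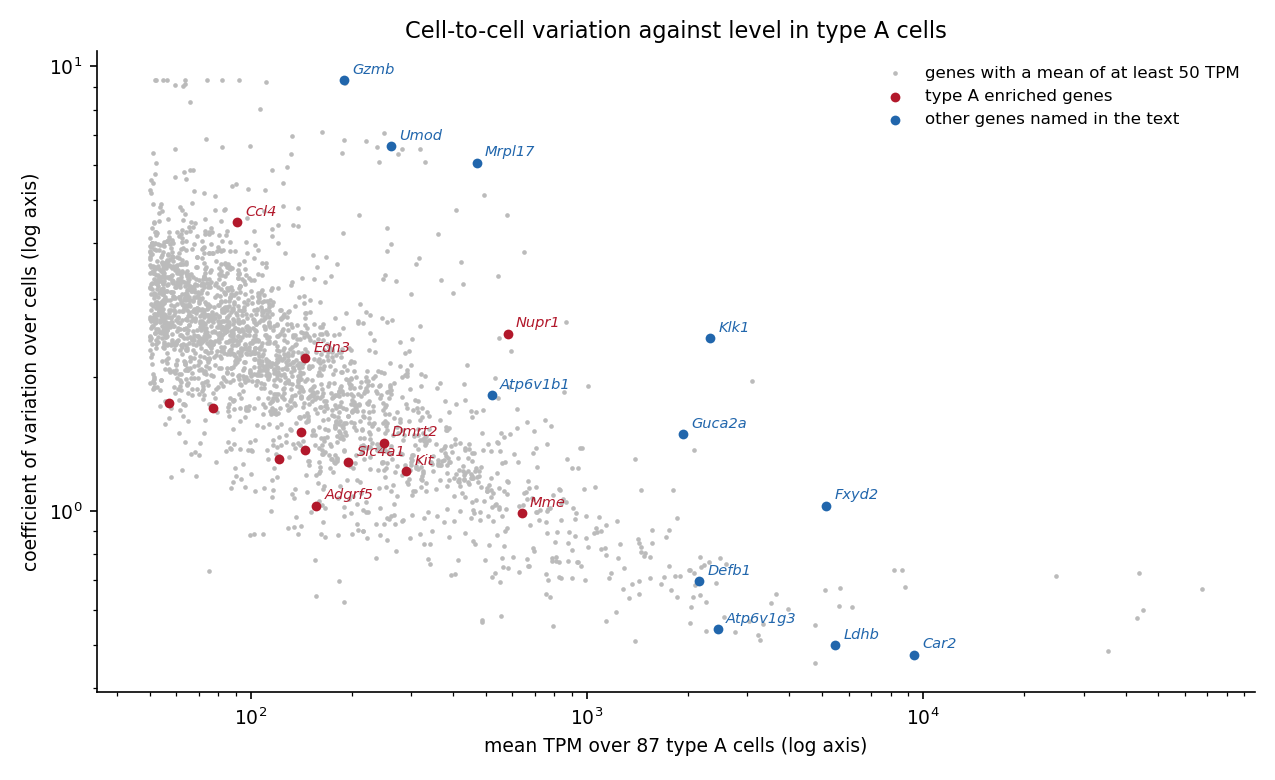
Coefficient of variation over the 87 type A cells against mean TPM (both log axes), for the 2424 genes that averaged 50 TPM or more. Gzmb, Umod and Mrpl17 lie highest among the labelled genes, Klk1, Nupr1 and Guca2a lie above genes of like level, and Car2, Ldhb and Atp6v1g3 lie lowest.

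The columns fell into 2 blocks by their numbers, 1 to 37 and 38 to 87, a boundary taken from earlier results of these data. What the numbers stand for is not given in the labels, so a library batch, a sort and a difference among cells cannot be told apart. Genes of principal cells were detected more often in the second block. Aqp2 was detected in 9 of the first 37 cells and 49 of the last 50, and Fxyd4 (the corticosteroid-induced sodium pump regulator) in 12 and 50. Of 6790 genes detected in 9 to 78 of the cells, 5 (0.0736%) were more frequent by over 50 percentage points in the last 50 (Aqp2, Fxyd4, Adh1, Apela and Tspan12). In these cells the 8 principal cell markers summed to 723 TPM on average, against 360 TPM in the first 37. Cells 45, 55 and 56 held 3323, 4674 and 7771 TPM of them and carried much of the average of the last 50. Principal cells averaged 11929 TPM, so the averages of both blocks were low.

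Some genes were detected more often in the first block. Over 50 points higher in share there were 2 of the 6790 genes (0.0295%), Tyrobp and Ccl3, both of myeloid cells. Tyrobp was detected in 27 of the first 37 cells and 10 of the last 50, and Ccl3 in 26 and 9. Their means ran the other way, at 3.55 and 29.3 TPM for Tyrobp and 2.27 and 3.81 TPM for Ccl3. On average the 7 leukocyte markers summed to 92.9 TPM in the first block and 180 TPM in the second. The 4 thick ascending limb markers, Umod among them, summed to 20.8 and 524 TPM. Both sums of the second block were carried by a few cells. Cells 40, 41 and 42 held 1128, 3075 and 1952 TPM of the leukocyte markers. Cells 63 and 78 held 6818 and 17878.5 TPM of the thick ascending limb markers. Inmt, a methyltransferase gene that averaged 346 TPM in proximal tubule cells, was in 18 of the first 37 and in none of the last 50. The type A markers were detected at like shares in both blocks. Slc4a1 was detected in 33 and 44 cells, Kit in 33 and 49 and Dmrt2 in 32 and 41, and the summed mean of the 5 was 1084 and 955 TPM. The median number of detected genes was 2697 in the first block and 2719 in the second.

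**Figure D4:**
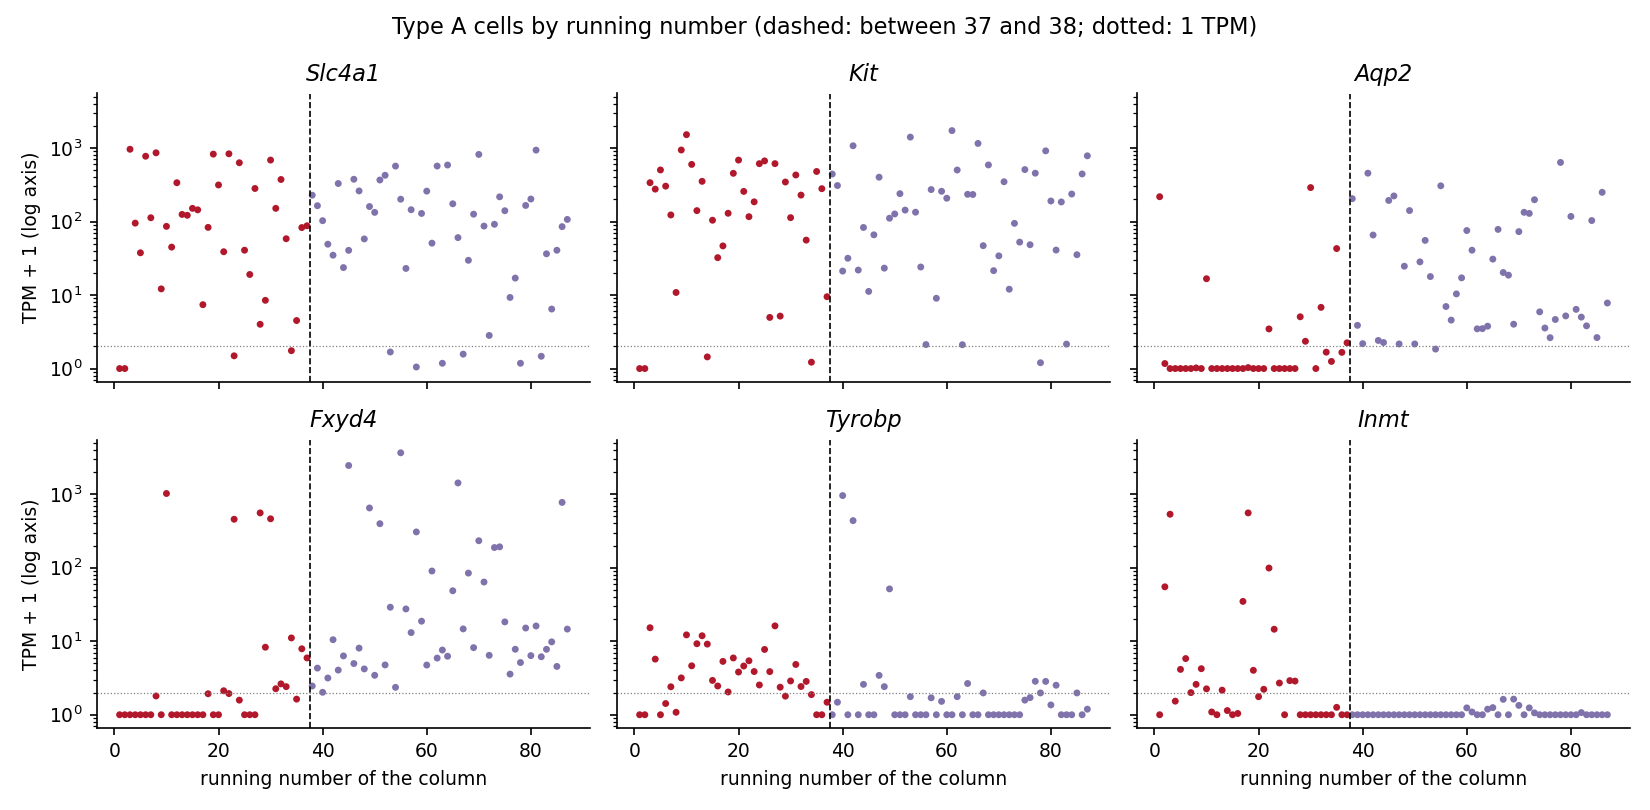
TPM + 1 (log axis) of 6 genes in the 87 type A cells against the number of the cell's column; the dashed line lies between 37 and 38 and the dotted line is 1 TPM. Slc4a1 and Kit are spread alike over both blocks, Aqp2 and Fxyd4 rise above 1 TPM in nearly all of the last 50 cells, and Tyrobp and Inmt are detected mainly in the first 37.

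The c-Kit and DBA fractions asked whether genes enriched in single type A cells also differ in pools sorted for that population. Of the 13 genes, 11 were higher in the c-Kit fraction, 1 was lower and 1 was not called, with a median log2 difference of 3.94 on the log2(TPM + 1) scale. Kit, the antigen of the sort, is among the 11, and without it 10 of 12 were higher (median 3.35). Over all 14341 genes tested with limma, 16.1% were higher and 28.1% lower (2315 and 4033 genes), with a median of -0.11. After quantile normalization the split was 3055 higher to 3072 lower. The count of genes called fell from 6348 to 3600 without DBA replicate 1 and to 3458 without DBA replicate 2, while 11 of the 13 were called higher in each of these fits.

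Slc4a1 was at 1763 and 1692 TPM in the c-Kit samples and at 28.6 and 34.6 TPM in the DBA samples, a log2 difference of 5.73 ± 0.09 (SE; limma, Benjamini-Hochberg adjusted p = 5.78e-07). Dmrt2 was at 305 and 310 TPM against 8.42 and 10.0 TPM (4.92 ± 0.09; limma adjusted p = 1.09e-06). Mme was at 533 and 564 TPM against 29.3 and 30.4 TPM (4.15 ± 0.06; limma adjusted p = 5.78e-07). For these 3 genes the fractions lay far apart and the replicates close together. Edn3, detected in as many single cells as Zak, was at 132 and 139 TPM against 9.28 and 6.64 TPM (3.94 ± 0.14; limma adjusted p = 8.25e-06). Zak had the smallest difference of the 11, with 23.5 and 24.1 TPM against 9.25 and 9.92 TPM (1.23 ± 0.11).

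The other genes, Ccl4 and Dpysl2, had higher means in non-epithelial than in type A single cells. Ccl4 was lower in the c-Kit samples, at 124 and 149 TPM against 394 and 469 TPM (-1.65 ± 0.12; limma adjusted p = 8.77e-05). Dpysl2 was at 5.71 and 4.85 TPM against 4.68 and 4.86 TPM, and its difference of 0.12 ± 0.17 did not pass (limma adjusted p = 0.594). Its single-cell mean, in a table normalized separately, was 145 TPM.

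Other cell types moved with the same contrast. The type B markers were higher in the c-Kit fraction for 4 of 4 genes, with Slc26a4 at 481 and 457 TPM against 79.2 and 66.7 TPM. Mast cell markers were higher for 3 of 3 tested, with Cpa3 at 43.8 and 35.8 TPM against 0.13 and 0.17 TPM, and plasma cell markers for 3 of 4. All 8 principal cell markers (median -2.87), all 7 leukocyte markers and all 6 proximal tubule markers were lower. Their part in the differences of the 13 genes was not tested.

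Lists of transport genes were read against the same background. Of 24 proton pump genes tested, 15 were higher in the c-Kit fraction, 5 lower and 4 not called (median 1.25). The intercalated forms were among the higher, with Atp6v0d2 at 1076 and 1161 TPM against 44.5 and 48.4 TPM (4.56 ± 0.07; limma adjusted p = 5.78e-07), while Atp6v0d1 was lower, at 88.2 and 85.1 TPM against 236 and 231 TPM (-1.42 ± 0.06; limma adjusted p = 1.25e-05). The widespread forms Atp6v1b2, Atp6v1c1 and Atp6v1g1 were not called, with differences of 0.17, 0.07 and 0.09. In both c-Kit samples Atp6v1b1, Atp6v1c2, Atp6v1g3, Atp6v0d2 and Atp6v0a4 each lay above their widespread form, as they did on average in the single cells.

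Of 26 receptor genes, 10 were higher and 12 lower. Oxgr1 was at 857 and 906 TPM against 15.6 and 19.2 TPM (5.59 ± 0.10; limma adjusted p = 9.21e-07), and P2ry14 at 91.3 and 90.6 TPM against 3.22 and 4.72 TPM (4.23 ± 0.15; limma adjusted p = 8.20e-06). P2ry14, seen in 28 single cells, thus separated the fractions. Of 12 mitochondrial energy genes 11 were higher (median 0.61), and of 8 immediate early genes all 8 were lower (median -1.65), among them Fos. Over all genes tested in this contrast, 16.1% were higher and 28.1% lower. The GFP sort differed: there 1 of the 12 mitochondrial energy genes was higher, 1 lower and 10 not called (median 0.004). Of the 8 immediate early genes, 3 were higher there, 2 lower and 3 not called (median 0.32). The ammonia channels differed from each other: Rhbg was at 1667 and 1650 TPM against 487 and 456 TPM (1.81 ± 0.06; limma adjusted p = 5.65e-06), while Rhcg was at 2123 and 2133 TPM against 2010 and 1805 TPM (0.16 ± 0.07; limma adjusted p = 0.116), a difference that turned to -0.03 after quantile normalization.

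The GFP sort gave a second set of pools, tested on read counts without pairing the samples. GFP-positive cells were higher than GFP-negative cells for 11 of the 13 genes, lower for 1 and not called for 1, with a median log2 difference of 3.66. Over all 15667 genes tested with edgeR's quasi-likelihood test, 15.2% were higher and 17.3% lower, with a median of 0.02. Read counts in genes ran from 35530885 to 40815091 per sample. All 11 were also among the 11 that were higher in the c-Kit fraction.

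Dmrt2 was at 210 and 401 CPM (the count over the sample's gene total) in GFP-positive samples and at 4.68 and 2.73 CPM in GFP-negative samples, a log2 difference of 6.30 ± 0.39 (edgeR quasi-likelihood, Benjamini-Hochberg adjusted p = 4.32e-05). Aqp6 was at 1128 and 3763 CPM against 33.7 and 19.1 CPM (6.48 ± 0.61; edgeR adjusted p = 1.20e-04). Edn3 was at 121 and 149 CPM against 5.39 and 5.38 CPM (4.56 ± 0.22; edgeR adjusted p = 2.78e-05). The fractions did not overlap for any of these, though the GFP-positive samples differed from each other more than 3-fold for Aqp6. Mme had a smaller difference, 1636 and 2096 CPM against 512 and 657 CPM (1.57 ± 0.26; edgeR adjusted p = 0.00210). Nupr1 was at 34.0 and 94.4 CPM against 18.3 and 19.8 CPM (1.67 ± 0.42; edgeR adjusted p = 0.0174), and without GFP-positive replicate 2 its difference was 0.72 (edgeR adjusted p = 0.0986).

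The same 2 genes stood apart again. Ccl4 was at 1.24 and 1.63 CPM against 69.7 and 15.2 CPM (-4.90 ± 0.63; edgeR adjusted p = 5.80e-04), and Dpysl2 differed by -0.41 ± 0.29 (edgeR adjusted p = 0.314). Beside this, the GFP-positive cells were higher for 4 of 4 type B markers (Slc26a4 by 7.12 ± 0.43), for 7 of 8 principal cell markers and for 8 of 8 markers of the distal convoluted and connecting tubules. They were lower for 6 of 6 proximal tubule, 6 of 6 tested leukocyte and 4 of 4 endothelial markers. The part of these cells in the differences was not tested.

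Proton pump genes in this sort were higher for 13 of 24 tested, lower for 4 and not called for 7. Over all genes tested in it, 15.2% were higher and 17.3% lower. Without Atp6v1b1, named in the strain, 12 of 23 proton pump genes were higher. Some of these calls depended on a single sample. Without GFP-positive replicate 2 the differences of Atp6v0b, Atp6v0e and Atp6ap1, all called higher with every sample in, were 0.44, 0.41 and 0.55. Atp6v1c2 had 271 and 274 CPM against 4.14 and 2.18 CPM (6.36 ± 0.28; edgeR adjusted p = 2.42e-05), while its widespread form Atp6v1c1 was lower, at 81.2 and 86.3 CPM against 130 and 103 CPM (-0.56 ± 0.16; edgeR adjusted p = 0.0314). Of 20 transcription factors 16 were higher, with Foxi1 at 326 and 677 CPM against 4.83 and 3.20 CPM (6.89 ± 0.42; edgeR adjusted p = 4.32e-05). Of the 19 tested between the c-Kit and DBA fractions, 7 were higher in c-Kit, 8 lower and 4 not called. Rhcg, which was not called between the c-Kit and DBA fractions, was at 367 and 556 CPM against 15.7 and 15.8 CPM (4.78 ± 0.27; edgeR adjusted p = 4.32e-05). The difference between the 2 sorts was not tested, since the units and the comparison fractions differ.

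**Figure D5:**
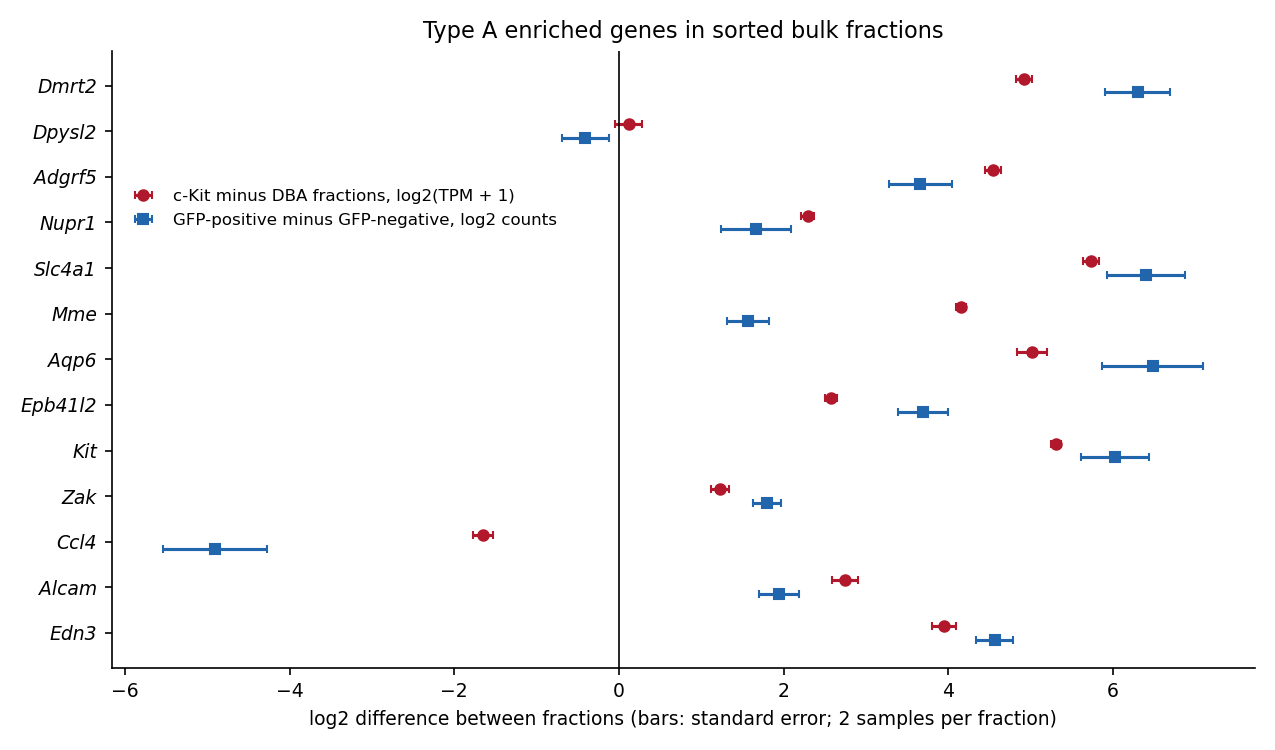
Log2 differences of the 13 type A enriched genes between sorted bulk fractions (circles, c-Kit minus DBA; squares, GFP-positive minus GFP-negative), with standard errors and 2 samples per fraction. In both sorts 11 genes lie to the right of 0; Ccl4 lies to the left and Dpysl2 near 0.

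In the dissected CCD the same genes were present without any sort. Over the 11 tubules Slc4a1 ran from 122 to 442 TPM (median 339), Kit from 58.0 to 238 TPM (median 149) and Aqp6 from 40.0 to 136 TPM (median 77.2). Dmrt2 ran from 30.8 to 106 TPM (median 69.1), Mme from 30.8 to 149 TPM (median 87.1) and Edn3 from 14.3 to 98.9 TPM (median 54.9). All of these were above 10 TPM in every tubule. Zak had a median of 15.0 TPM with a single high tubule at 133 TPM. Dpysl2 reached 1 TPM in 4 of the 11 tubules (median 0.58, highest 4.37) and Ccl4 in 3 (median 0, highest 12.2). Fos, at 871 TPM in the single type A cells, had a median of 8.75 TPM in the tubules. The tables were normalized separately, so levels across them are set side by side and not tested.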

How the data were processed

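The values are tables that the authors deposited, and no reads were processed here. Single cells, c-Kit and DBA fractions and tubules have TPM values from the authors, 47069 genes each. The submitters' processing notes name STAR 2.5.1b, RSEM 1.2.31, Seurat and the build GRCm38.p5 without saying what each was used for. The GFP samples have read counts that the authors made with HTSeq, per the file headers and names, with 24111 genes. Whether counting used strand is not stated there, so genes that overlap, antisense pairs included, are uncertain. Reads in no feature (66.5% to 72.7%) stayed out of library sizes and tests. Positions are from GENCODE M21 on GRCm38.

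Single cells were described by mean, SD, median, detection at 1 TPM and CV, with no test. The c-Kit and DBA samples were compared with limma 3.58.1 (R 4.3.3) on log2(TPM + 1), with a variance trend, for genes averaging 1 TPM or more. That scale understates the change of low genes. The GFP counts were compared with edgeR 4.0.16, quasi-likelihood with TMM scaling and filterByExpr. Both were tested on simulated data, and p-values were Benjamini-Hochberg adjusted over all genes at a threshold of 0.05. Other tools were Python 3.11.15, pandas 2.3.3, scipy 1.17.1, matplotlib 3.10.9 and DESeq2 1.42.0 as an alternative. Of 231 genes listed, 228 matched in the count table, 4 by another symbol (Adgrf5 among them), and 4 rows of repeated symbols were left out.

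Groups come from the sample titles and labels. Named genes are the type A enriched genes, the markers, the members of fixed lists, the 10 genes of largest and smallest relative CV and the 15 of highest level. Genes named from the trimmed CV ranking and from the 2 blocks of columns were chosen after their values were seen. The members and lists were chosen with earlier results of these data known. The headers of another table of the GFP samples name a first and a second experiment for both fractions, so replicate numbers pair these samples. Same-numbered samples deviated together with a correlation of 0.17. The GFP p-values in the Results are from the fit without this pairing, and the fit with a replicate block is given below. The c-Kit and DBA samples share only a number. The RPKM values of the GFP samples and the thick ascending limb tubules were not used here. A few genes of the lists are not reported here.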

Additional observations from a re-analysis of the deposited data

How the results depend on the processing

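TPM keeps no depth, cells of a type come from an unknown number of animals, and each bulk fraction has 2 samples, which limits every comparison. The count of type A enriched genes was 13, and it became 23 with medians, 6 against all 4 other types and 26 without cells holding principal cell markers. The last of these, the settings that leave out cells with few type A markers and the trimmed CV were chosen after seeing the data. The setting that gave 26 genes left out mostly cells of the last 50 type A columns, so it is largely a choice of columns as well. Other settings gave 9 to 19 genes. Genes detected in at least 50% of cells numbered 1507, but 5754 with detection above 0 and 894 at 10 TPM. The median CV was 2.20, and 1.44 without the highest 5% of cells. The cause of these shifts was not tested.

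Leaving out 1 sample gave 3458 to 5701 genes called between c-Kit and DBA, and 3622 to 4210 between GFP fractions, with 11 enriched genes higher throughout the former and 10 to 11 in the latter. With 1 sample in a fraction, that sample is assumed to vary like the others. A replicate block gave 6271 genes called between c-Kit and DBA and 5887 between GFP fractions, against 6348 and 5098, and 11 enriched genes higher in both. In the GFP comparison the block also called Atp6v1f higher (0.64), and it changed no call that the report gives. The c-Kit and DBA samples with the same number correlated at 0.026, so there the block says little.

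A few differences changed sign, none of them called under either setting. Rhcg was at -0.031 between c-Kit and DBA after quantile normalization. Between GFP fractions, leaving out 1 sample gave -0.74 to 0.020 for Dpysl2 (above 0 without GFP-negative replicate 1), -0.74 to 0.016 for Atp6v0c (above 0 without GFP-negative replicate 2, or without GFP-positive replicate 1), -0.26 to 0.063 for Pax8 (above 0 without GFP-negative replicate 2) and -0.12 to 0.18 for Clcn5 (below 0 without GFP-positive replicate 1). The cause was not tested.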
